A study of Mus musculus with 14 samples.

Results

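The regions described here are 37 broad domains of trimethylated histone H3 lysine 4 (H3K4me3) in mouse embryonic stem cells after 4-hydroxytamoxifen (4-OHT), at places where untreated cells of the same line had only narrower or partial H3K4me3 peaks. They were chosen from the called peaks. A 4-OHT H3K4me3 peak of at least 10000 bp entered if it overlapped an untreated peak but none of 5000 bp or more, or if untreated peaks covered at most 50% of its length. Of 56419 peaks called after 4-OHT, 314 reached 10000 bp, which is 0.557%, and 37 of these 314 (11.8%) met the rule. The first condition took 29 domains and the second 18, with 10 taken by both. The other 277 wide 4-OHT peaks serve below as the comparison set.

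The cells were Mll1 fl/fl; Cre-ER TM embryonic stem cells on a C57BL/6J background, derived from blastocysts and grown with LIF, 5% serum and 15% knockout serum replacement. All 3 groups carry the same floxed alleles and the same tamoxifen-inducible Cre, whose promoter is not given in the labels. Untreated cells were compared with cells given 5 µM 4-OHT, which activates Cre to delete the floxed part of Mll1, and with cells given 100 µM MM-401, an inhibitor of the Mll1 methyltransferase, each for 9 days over 3 passages. Chromatin immunoprecipitation with sequencing (ChIP-seq) was made for mono-, di- and trimethylated H3K4 in each group and for Mll1 in untreated cells, with 1 library per mark and group. No comparison between groups therefore has a replicate check or a test. Intervals given for tags cover counting error only. In these bulk populations, a higher level in each cell and a higher share of cells with the mark cannot be told apart. Whether the line is 1 clone is not given in the labels.

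Methylation of H3K4 is laid down by a family of complexes built around the Set1 and Mll enzymes. Trimethylation is known for sitting in narrow peaks at active or poised promoters, dimethylation spreads around them, and monomethylation marks flanks and enhancers. Broad H3K4me3 domains, which run into gene bodies, are known at genes of cell identity in many cell types. Mll1 (Kmt2a), brought to a subset of promoters, is a member of this enzyme family.

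Depth and peak number bear on every width below. The H3K4me3 libraries held 25.3 M (untreated), 12.9 M (MM-401) and 26.4 M (4-OHT) filtered tags, where M stands for 1000000, with 82.5%, 85.6% and 87.5% of them in peaks and redundant-tag rates of 0.60, 0.42 and 0.67. Untreated cells had 87 peaks of at least 10000 bp (0.164% of 52912), and MM-401 cells had 95 (0.295% of 32191). The excess of wide peaks after 4-OHT was thus present over the whole list, and the part of depth, enrichment and duplicate rate in it was not tested. The file headers put the MM-401 libraries in another data folder than the rest, so folder and treatment cannot be told apart there. H3K4me3 peaks lay at the starts of 8 of 8 stem cell marker genes in every group, with summed levels of 986, 1261 and 1122 tags per M in untreated, MM-401 and 4-OHT cells. Fibroblast markers had peaks at 3 of 6 genes in each group, summing to 45.5, 33.7 and 47.3, with Col3a1, Dcn and Lum at 0. Primitive endoderm markers summed to 209, 181 and 185 with Gata4 at 0, and trophectoderm markers to 139, 123 and 136 with Elf5 at 0. The Kmt2a start carried 107, 118 and 107 tags per M, which does not check the deletion, because the deleted part is not stated.

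Some domains hold an annotated gene start, and the DNA just before it is shown for 4 of them. The 4 promoters below are those of a Polycomb cofactor gene (Jarid2), the gene of the DNA-binding effector of Notch signalling (Rbpj), a pluripotency transcription factor gene (Foxd3) and a chromatin remodeller gene (Atrx), whose peaks are drawn further on. Each is the 250 bases before the gene start, 5′ to 3′ on the gene's strand, from RefSeq (GRCm38.p6), with each CG dinucleotide in capitals. They lie at chr13:44731021-44731270 (plus strand), chr5:53590236-53590485 (plus), chr4:99656049-99656298 (plus) and chrX:105929373-105929622 (minus), in that order. They are shown because the first 3 are dense in CG, as most promoters of the set were, and Atrx is the sparsest.
Jarid2: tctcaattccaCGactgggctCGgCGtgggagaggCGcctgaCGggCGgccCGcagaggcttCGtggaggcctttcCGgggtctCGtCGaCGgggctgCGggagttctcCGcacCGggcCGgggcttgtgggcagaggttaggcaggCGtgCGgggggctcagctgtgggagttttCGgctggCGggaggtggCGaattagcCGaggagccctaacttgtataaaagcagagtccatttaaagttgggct
Rbpj: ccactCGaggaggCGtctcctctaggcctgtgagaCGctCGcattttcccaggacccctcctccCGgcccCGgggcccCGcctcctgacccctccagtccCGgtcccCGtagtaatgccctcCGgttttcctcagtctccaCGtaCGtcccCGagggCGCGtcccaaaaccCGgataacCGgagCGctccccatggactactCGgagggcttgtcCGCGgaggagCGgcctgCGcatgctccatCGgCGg
Foxd3: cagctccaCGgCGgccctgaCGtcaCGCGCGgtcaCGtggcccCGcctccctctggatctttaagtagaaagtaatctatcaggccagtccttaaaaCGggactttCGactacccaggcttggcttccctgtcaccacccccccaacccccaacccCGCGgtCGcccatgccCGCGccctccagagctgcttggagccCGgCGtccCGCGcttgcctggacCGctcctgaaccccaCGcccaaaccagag
Atrx: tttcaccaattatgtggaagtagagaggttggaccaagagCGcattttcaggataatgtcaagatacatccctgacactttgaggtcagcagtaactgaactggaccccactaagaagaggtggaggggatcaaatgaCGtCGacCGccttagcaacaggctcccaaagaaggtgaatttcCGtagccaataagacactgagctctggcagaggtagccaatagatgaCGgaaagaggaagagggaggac
Jarid2 had 22 CG dinucleotides in this window, Rbpj 25, Foxd3 21 and Atrx 6. Across the 20 domains with a start in the promoter table used here, which has no entry for Zfp532, Etf1, Smad7 and Cndp2, the median was 20.5 CG (6 to 47) and 18 promoters (90%) had at least 10. The same share was 89.4% in 199 other wide domains with a start and 50.1% in all 21263 promoters of the table. CG-rich promoters were therefore common to wide domains of both sets. The motif GGGCGG, searched on both strands, was in 14 of 20 promoters (70%), against 69.3% in the other wide domains and 42.6% of all promoters. TATAAA, also searched on both strands, was found in 1 (5%), that of Jarid2, against 7.04% and 11.6%.

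The 37 domains spanned 10029 to 51204 bp with a median of 11924 bp, close to the 12283 bp of the other wide domains, and together 539 kb. Most sat near the lower limit: 30 were shorter than 15 kb and 5 were 20 kb or longer. They were spread over 15 chromosomes. Jarid2 and the region near Zfp281 had a pair of domains each, with gaps of 19500 and 12619 bp inside the pair. Another 4-OHT H3K4me3 peak of at least 5 kb lay within 10 kb of 17 domains (45.9%), against 61 of 277 other wide domains (22.0%).

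In untreated cells these places already held H3K4me3, in pieces. Each overlapped at least 1 untreated peak, which the second condition of the rule did not require. The number ranged from 1 to 7 with a median of 3, and 30 domains overlapped several untreated peaks. The longest untreated peak had a median of 4259 bp. Untreated peaks covered 24.2% to 89.4% of a domain with a median of 51.1%, against 83.2% in the other wide domains, a contrast that the rule itself sets. The longest stretch without an untreated peak had a median of 3138 bp and reached 21268 bp. The summit of the 4-OHT peak fell inside an untreated peak in 36 of 37 domains, the exception being the second Jarid2 domain. The same held for all 277 other wide domains. Thus in both sets the point of strongest signal after 4-OHT was, with that 1 exception, a place marked before, and the added length lay around it.

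**Figure D1:**
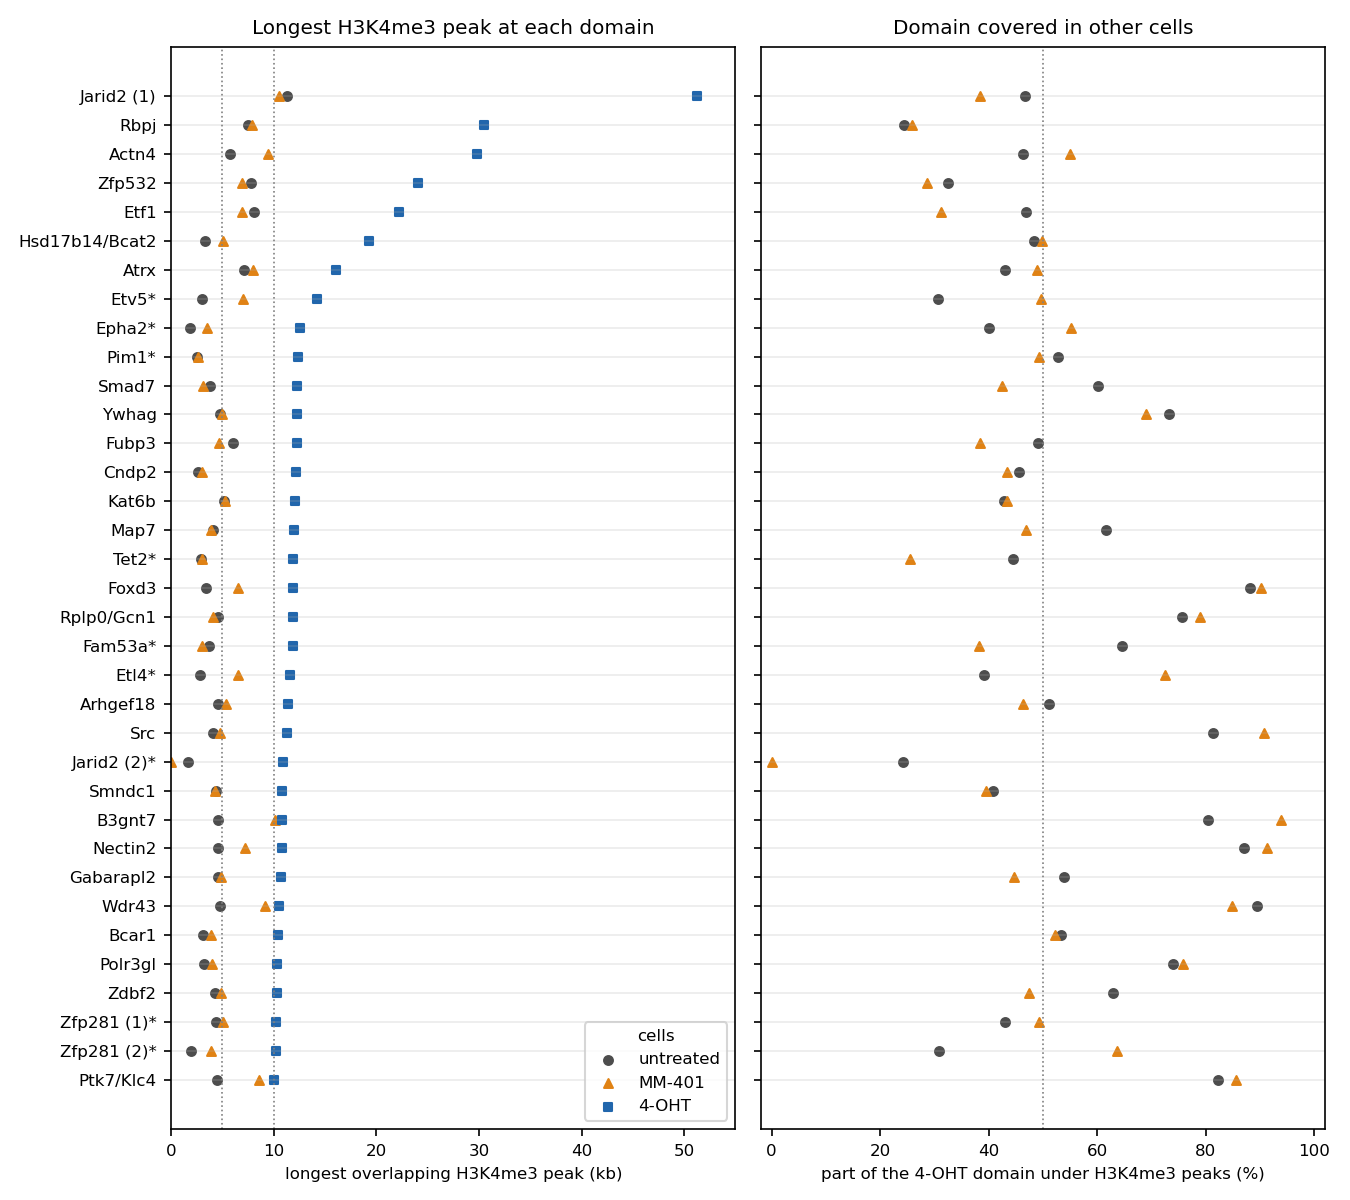
Each row is 1 of 35 of the 37 domains, from longest to shortest, with the longest overlapping H3K4me3 peak in kb (left; circles untreated, triangles MM-401, squares 4-OHT) and the percentage of the domain under H3K4me3 peaks in the other cells (right); dotted lines mark 5 kb, 10 kb and 50%, and an asterisk marks a domain with no gene start or end within 1 kb, named for the gene it lies in or nearest to. The MM-401 triangles lie to either side of the untreated circles, with medians over all 37 domains of 48.8% and 51.1% covered.

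The rule has sharp edges and the values run through them without a step. The shortest domains inside were Ptk7/Klc4 (10029 bp) and the pair near Zfp281 (10201 and 10231 bp), while Mapk6 (9974 bp), Tmem51 (9964 bp) and Dlgap1 (9950 bp) fell just outside. For the longest untreated peak, Wdr43 (4770 bp), Ywhag (4763 bp) and Gabarapl2 (4612 bp) were just inside, and Zfp740/Csad (5004 bp), Myh9 (5055 bp) and Ccnt2 (5071 bp) just outside. For untreated cover, Fubp3 (49.0%), Etf1 (46.9%) and Jarid2 (46.6%) were inside, and 1810013L24Rik (52.9%), Cdh1 (53.1%) and Manba (53.4%) outside. Membership near an edge thus turns on small differences in length or cover.

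The share of domains at gene ends was below that of the other wide domains. A protein-coding start or end lay within 1 kb of 26 of 37 (70.3%), against 255 of 277 (92.1%) of the other wide domains 89.5% of all 314 wide peaks and 30.2% of all 4-OHT peaks. Of the remaining 11, 6 lay within gene bodies (among them those of Etv5, Tet2 and Etl4 and the second Jarid2 domain) and 5 between genes. The last 5 were 7523 bp from Epha2, 20962 bp from Pim1, 62268 bp from Fam53a, and 61853 and 39033 bp from Zfp281, the first of this pair at the noncoding gene Platr22. Tag density in the 4-OHT library was lower in the domains away from gene ends, with a median of 4.78 tags per M per kb (2.90 to 8.21) against 8.71 (3.52 to 14) at gene ends. The other wide domains had a median of 12.9. The ranges of the 2 classes of newly broad domains overlapped. The rule selects narrow or low untreated cover, and its part in the lower gene-end share and the lower density was not tested.

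Where a gene start of the promoter table lay inside (20 domains), the added H3K4me3 lay mainly downstream of that start. How much of it lay within the gene itself was not measured. All 20 starts were already under an untreated peak. The part newly covered was longer downstream of the start in 18 of 20 domains (90%), the exceptions being Bcat2, a mitochondrial branched-chain aminotransferase, and the kinase gene Src. The median newly covered length was 788 bp upstream and 4302.5 bp downstream. In 199 other wide domains the downstream side was the longer in 158 (79.4%), with medians of 173 and 1555 bp, so the same side gained in both sets. These lengths come from the lists the rule used and are a description.

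**Figure D2:**
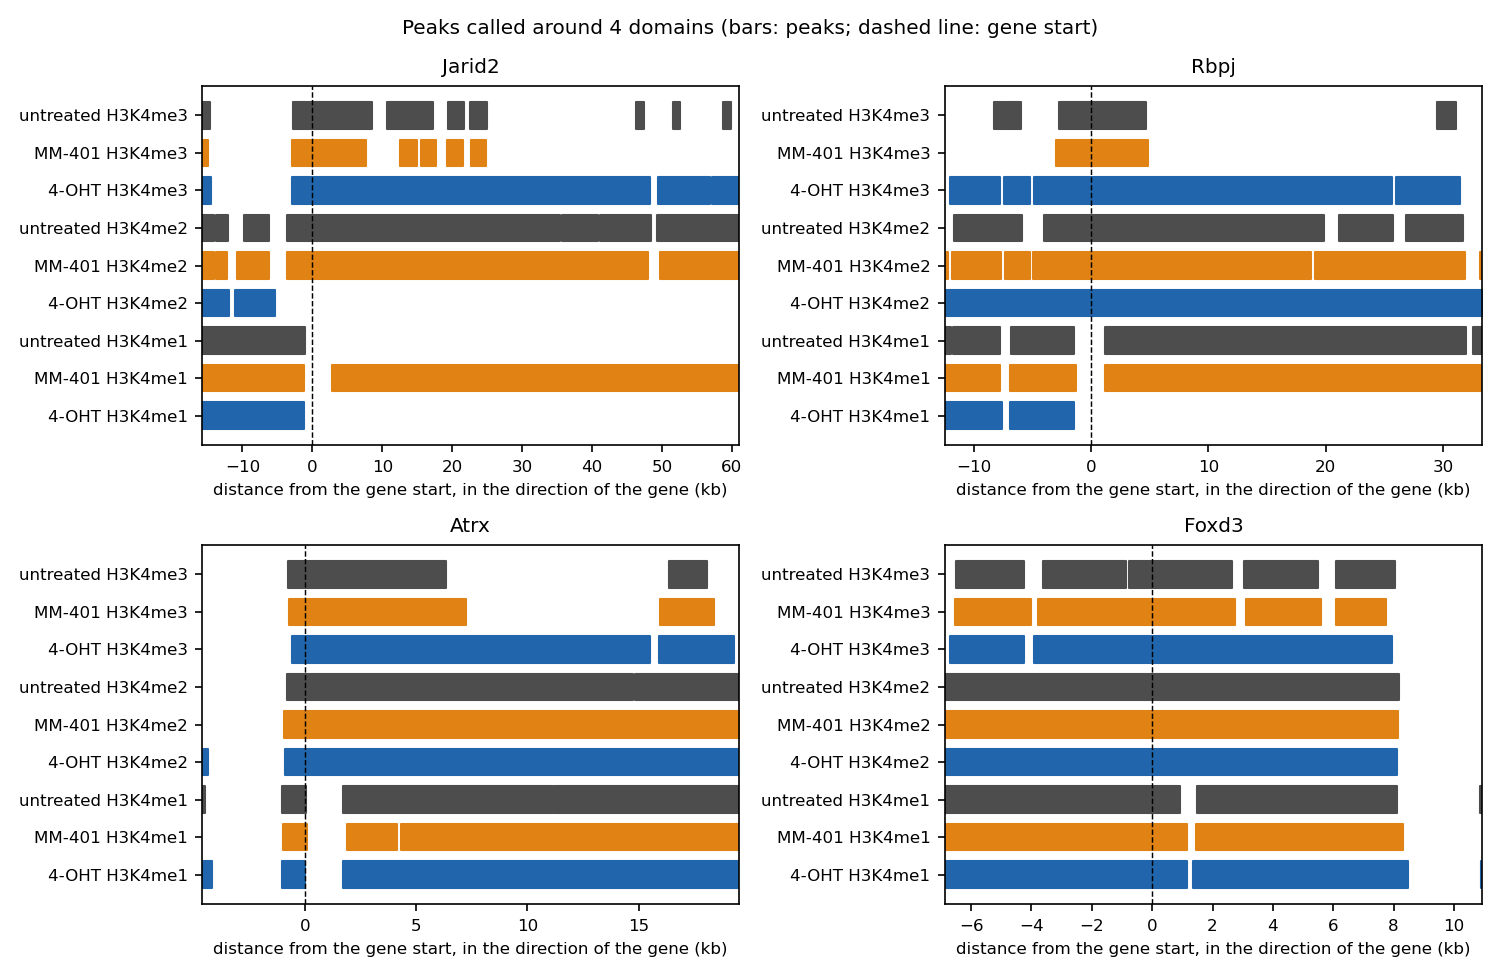
Peaks called in the 9 histone libraries around the Jarid2, Rbpj, Atrx and Foxd3 domains are drawn as bars against the distance from the gene start in kb, in the direction of the gene (grey untreated, orange MM-401, blue 4-OHT; dashed line, gene start). At Jarid2, Rbpj and Atrx the 4-OHT H3K4me3 bar over the start runs further downstream than the untreated and MM-401 bars over the start. Shorter untreated bars also lie beyond its end at these genes. At Foxd3 the 4-OHT bar joins pieces that already covered 88.2% of the domain.

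The tag sums are given first for the 5 longest domains and for several shorter ones at gene starts or ends. Sums are the tags of all peaks that overlap a domain, per M filtered tags of the library. Tags in the gaps between untreated peaks, below the caller's threshold, are not in the untreated sums. The longest domain covered the start of Jarid2, which helps bring Polycomb repressive complex 2 to its targets (chr13:44728302-44779505, 51204 bp). It held 257 tags per M in untreated cells (counting interval 251 to 263), 290.5 after MM-401 (281 to 300) and 425.5 after 4-OHT (418 to 433). The level after 4-OHT was the highest, at 1.66 times untreated, an order that the choice of the domain favours. The newly covered length was 27125 bp downstream and 196 bp upstream of the start, and the longest peak measured 11321 bp in untreated, 10481 bp in MM-401 and 51204 bp in 4-OHT cells.

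At Rbpj (chr5:53585644-53616180, 30537 bp) untreated cells had a single peak of 7463 bp. Its sum was 127 tags per M untreated, 148 after MM-401 and 226 after 4-OHT, 1.78 times untreated. The 4-OHT peak added 20988 bp downstream and 2086 bp upstream, while the MM-401 peak of 7894 bp kept close to the untreated width. Actn4, an actin crosslinker gene (chr7:28936326-28966176), went from 7 untreated peaks to 1 peak of 29851 bp. Its level was 115, 158 and 226 tags per M in untreated, MM-401 and 4-OHT cells.

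The zinc finger gene Zfp532 (chr18:65575277-65599316) had 46.2 tags per M untreated, 39.3 after MM-401 and 154 after 4-OHT. This 3.34-fold ratio was the highest among the 26 domains at gene ends. Etf1, which releases finished proteins from the ribosome (chr18:34913839-34935997), was far closer between groups, at 161, 183 and 208. The domain of Hsd17b14 and Bcat2 (chr7:45557068-45576311) joined 4 untreated peaks, with 56.7 tags per M untreated, 71.9 after MM-401 and 142 after 4-OHT.

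At Atrx (chrX:105913877-105929962) the level was 75.4, 98.9 and 128 tags per M in untreated, MM-401 and 4-OHT cells, and all 9168 newly covered bases lay downstream of the start. Foxd3 (chr4:99652396-99664261) had 83.1, 74.2 and 109, with 5 untreated peaks that already covered 88.2% of the domain. Foxd3 thus entered through the narrowness of its untreated pieces and not through a large gain in cover. Nectin2, an adhesion receptor gene (chr7:19740430-19751195), likewise had 87.0% untreated cover, and its levels of 97.7, 126 and 104 put 4-OHT only 1.06-fold above untreated and below MM-401.

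Domains of other named roles followed the same order of untreated below 4-OHT, with MM-401 on either side of untreated. Rplp0/Gcn1, a ribosomal protein gene with a translation regulator, had 107, 143 and 144 tags per M in untreated, MM-401 and 4-OHT cells. Kat6b, a histone acetyltransferase gene, had 84.3, 92.7 and 110. In both the 4-OHT excess over untreated stayed below 1.5-fold. Smad7, an inhibitor of signalling by the transforming growth factor family, had 15.8, 8.28 and 43.4. Ywhag, a gene of the 14-3-3 adaptor family, had 24.9, 17.9 and 46.4. Both domains were lower than most at gene ends, with MM-401 below untreated. Each gene had a further wide domain outside the newly broad set, with 273, 323 and 332 tags per M at Smad7 and 144, 211 and 192 at Ywhag. The start of Ywhag lay in its further domain, so the newly broad one was at the other end of the gene. For Smad7 the promoter table has no entry, so its newly broad domain is not placed at the start. B3gnt7, a glycosyltransferase gene, had 55.3, 92.1 and 118, and its MM-401 peak of 10154 bp was itself broad. Zdbf2, an imprinted gene, had 56.4, 57.4 and 103.

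The remaining domains at gene starts and ends lay within the same range. Map7, a microtubule-binding protein gene, had 84.2, 94.4 and 123 tags per M in untreated, MM-401 and 4-OHT cells, and Src, a tyrosine kinase gene, had 44.4, 45.8 and 70.4. Wdr43 had 106, 135 and 148. In each of these 3 domains 4-OHT was the highest and untreated the lowest. At 4 domains MM-401 was above 4-OHT: Nectin2, given above, Arhgef18, Smndc1 and Ptk7/Klc4. Arhgef18, a guanine nucleotide exchange factor gene, had 66.9, 99.1 and 92.9 tags per M in that order. Smndc1, a splicing factor gene, had 103, 130 and 124, and Ptk7/Klc4, which pairs a receptor of planar cell polarity with a kinesin light chain, had 78.5, 106 and 97.3. In these 4 the H3K4me3 level was higher in both treated groups than in untreated cells. The others, Fubp3, Cndp2, Gabarapl2, Bcar1 and Polr3gl, ranged from 40.0 to 94.2 in untreated, from 43.9 to 114 in MM-401 and from 68.8 to 137 in 4-OHT cells.

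Away from gene ends the starting levels were low and the ratios high. The 11 such domains had medians of 13.7 tags per M in untreated, 14.3 in MM-401 and 61.6 in 4-OHT cells, and their 4-OHT to untreated ratios ran from 2.38 to 8.99 with a median of 3.68. At the 26 gene-end domains the medians were 80.7, 93.5 and 114, and the ratios ran from 1.06 to 3.34 with a median of 1.52. Because the rule selects low untreated cover, and the sums miss tags below the threshold, such ratios describe how these domains were found.

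The second Jarid2 domain, in the gene body (chr13:44799006-44809896), had 3.52 tags per M untreated, none in the MM-401 list and 31.7 after 4-OHT. A count of 0 here means that the MM-401 list holds no peak, not that no tag fell there. Etv5, an ETS factor gene tied to the exit from naive pluripotency (chr16:22400238-22414408, in the gene body), had 8.27, 26.5 and 62.9 tags per M in untreated, MM-401 and 4-OHT cells. Tet2, which oxidises methylcytosine (chr3:133508736-133520659, in the gene body), had 9.78, 6.42 and 57.0. In both 4-OHT was the highest, while MM-401 was above untreated at Etv5 and below it at Tet2.

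The domain near Epha2, a receptor tyrosine kinase gene (chr4:141281141-141293698), had 13.3 tags per M untreated, 14.3 after MM-401 and 69.3 after 4-OHT. The domain near the kinase gene Pim1 (chr17:29457477-29469823) had 24.9, 19.6 and 64.3. The counting intervals of untreated and MM-401 cells overlapped near Epha2 (12.0 to 14.8 and 12.3 to 16.5) but not near Pim1 (23.0 to 26.9 and 17.2 to 22.1). Near Zfp281 the domain at Platr22 (chr1:136692244-136702474) had an MM-401 level between the others, at 22.8, 44.6 and 81.8, and its neighbour had 8.55, 12.4 and 33.8. Etl4 (chr2:20664381-20675920, in the gene body) had 16.7, 34.2 and 61.6. The domain far from Fam53a (chr5:33526243-33538083) had 40.9, 25.6 and 97.2, the highest untreated level of the 11.

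Over the 37 domains 4-OHT was higher than untreated in every one, with a median log2 ratio of 0.87 (1.83-fold), and 24 were at least 1.5-fold higher. Of all 4-OHT peaks with an untreated partner, 10.0% were at least 1.5-fold higher and 6.86% at least 1.5-fold lower. The contrast is the one the rule used, so nothing further is read from the count. The other wide domains had a median of 1.22-fold.

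**Figure D3:**
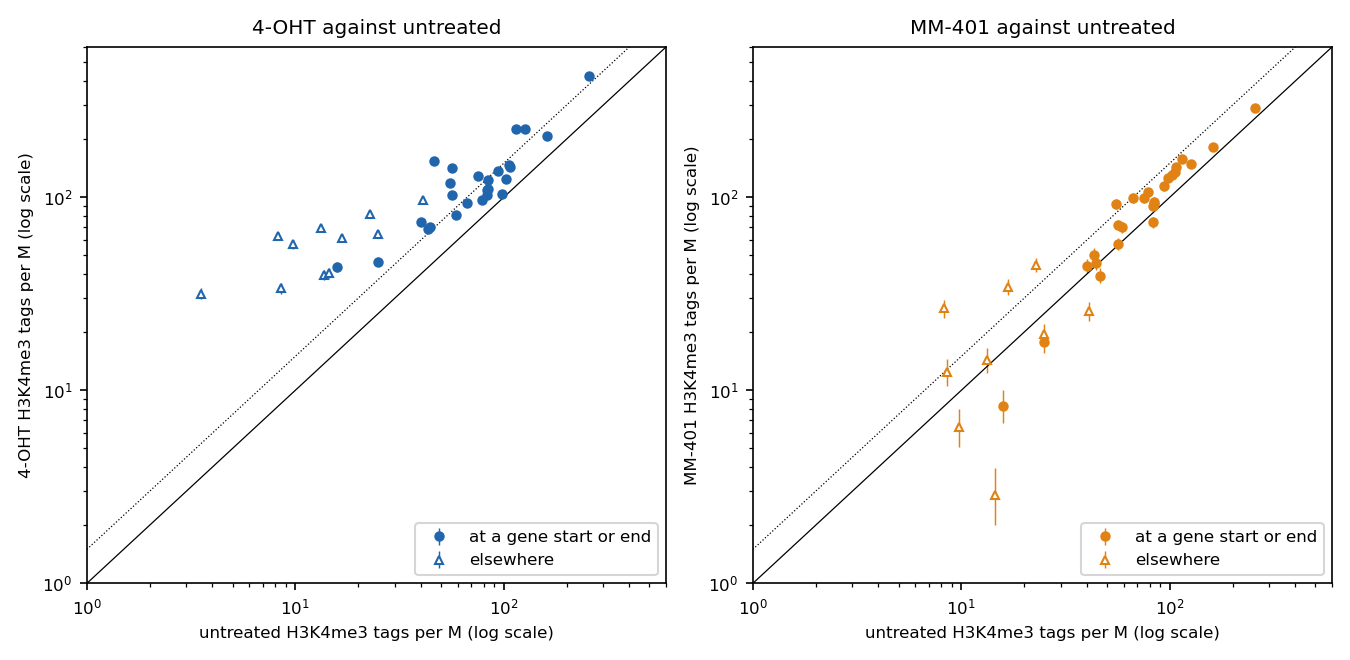
H3K4me3 tags per M in each domain after 4-OHT (left) and MM-401 (right) are plotted against untreated cells on log scales, with exact Poisson 95% intervals on the treated values, circles for domains at a gene start or end and open triangles for the rest; the solid line is equality and the dotted line 1.5-fold higher. All 37 domains lie above equality after 4-OHT, while after MM-401 27 of the 35 domains drawn do, and the 2 domains with no MM-401 peak are not drawn.

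MM-401 was not used by the rule, although it shares the untreated library with it. Its H3K4me3 peaks covered a median of 48.8% of a domain (0 to 93.9%), and the difference from untreated had a median of -1.26 percentage points, with 17 domains higher and 20 lower. The most covered were B3gnt7 (93.9%), Nectin2 (91.3%), Src (90.7%), Foxd3 (90.2%) and Ptk7/Klc4 (85.5%), all of which untreated peaks also covered by more than 80%. A single MM-401 peak of at least 10 kb occurred at 2 domains, B3gnt7 and Jarid2. The median cover after MM-401 was thus near that of untreated cells, in the shallowest of the 3 libraries (12.9 M tags).

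In tags, MM-401 was above untreated in 27 of the 35 domains with a peak in both lists, with a median log2 ratio of 0.22 (1.16-fold), against 1.19-fold in the other wide domains. At least 1.5-fold higher were 4 domains (5.80% over all 4-OHT peaks with a partner) and at least 1.5-fold lower another 4 (19.6%). By place, MM-401 was higher in 22 of 26 domains at gene ends and in 5 of 11 elsewhere. The difference in direction between these classes was not tested. Away from gene ends, MM-401 was above 1.5-fold at Etv5, Etl4 and Platr22, and at least 1.5-fold lower at Tet2 and in the domain nearest to Fam53a. At gene ends, B3gnt7 was 1.67-fold higher and Smad7 was at 0.524 of untreated.

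Dimethylation gave a view that the rule did not use. H3K4me2 already spanned the domains before treatment: untreated H3K4me2 peaks covered a median of 100% of a domain and at least 90.1%, and in 28 of 37 a single peak did so. After MM-401 the median cover was 99.7% with a single peak at 26, and after 4-OHT 100% with a single peak at 35. The added H3K4me3 therefore lay within stretches that carried H3K4me2 beforehand, as did the other wide domains, whose median untreated H3K4me2 cover was also 100%. The lowest untreated value was that of the domain near Pim1.

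**Figure D4:**
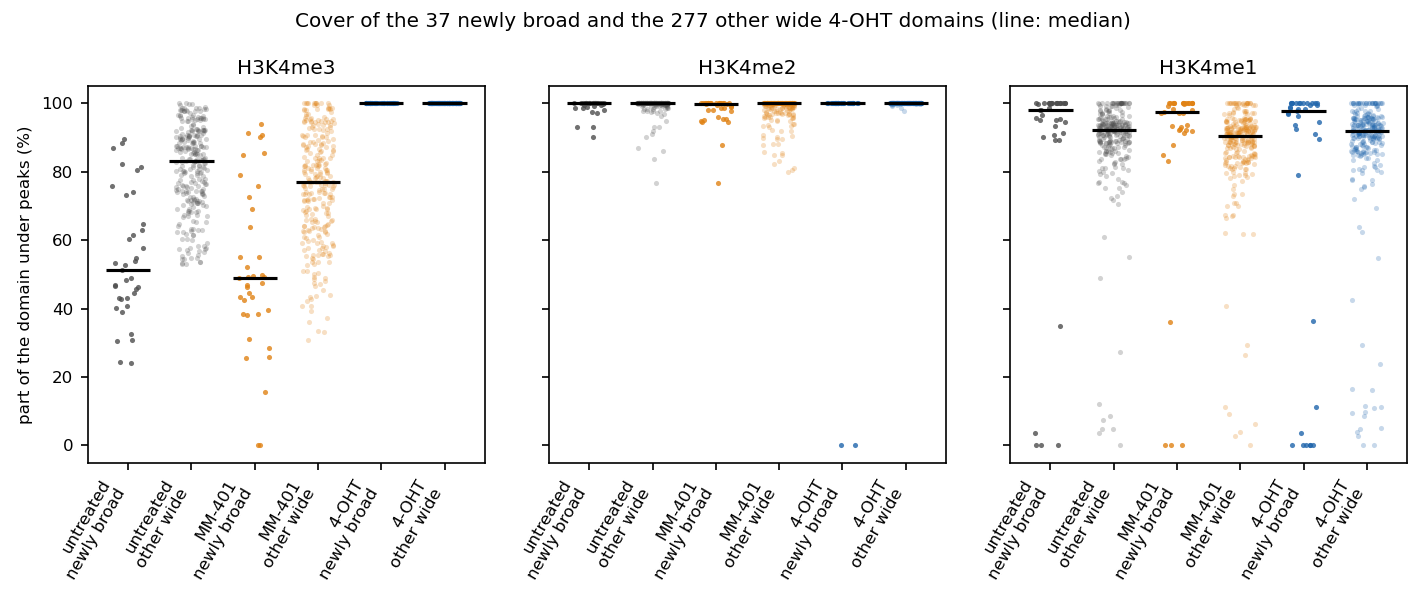
The percentage of each domain under peaks of H3K4me3, H3K4me2 and H3K4me1 is shown for untreated, MM-401 and 4-OHT cells, with the 37 newly broad domains beside the 277 other wide domains; each point is a domain and lines are medians. Untreated H3K4me3 cover has medians of 51.1% and 83.2% in the 2 sets, whereas H3K4me2 cover has a median of 100% in both.

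For tags within a domain, each H3K4me2 peak was counted in proportion to the part of it inside, because many extended beyond the domain. Only domains at least 50% covered in both lists were used. This count takes tags as spread evenly along a peak, so a change in peak length can move it. On this scale 4-OHT was above untreated in 33 of 35 domains, with a median log2 ratio of 0.22 (1.16-fold). The other wide domains were higher in 151 of 277, with a median of 1.01-fold, and the median over all 4-OHT H3K4me3 peaks was 0.981-fold. At least 1.5-fold higher were 3 of 35 (8.57%), against 3.82% over all these peaks, and none was 1.5-fold lower (1.43%). By this count H3K4me2 was higher in most newly broad domains of this 4-OHT library, by a small factor, with few past 1.5-fold. The ratio was 1.14-fold at the median of 25 domains at gene ends and 1.30-fold at that of 10 elsewhere, where all 10 were higher.

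By this count the domain near Epha2 had the highest ratio (1.78-fold). It was assigned 44.3 tags per M in untreated, 58.5 in MM-401 and 78.7 in 4-OHT cells. The 4-OHT value was part of a peak of 47878 bp, and the untreated value was part of one of 14162 bp. Rbpj had 99.3, 120 and 175 (1.77-fold), and Etv5 had 37.8, 53.1 and 57.7 (1.53-fold). At Rbpj the 4-OHT H3K4me2 peak measured 77548 bp and the longest untreated one 23863 bp. The part of peak length in these ratios was not tested. In these 3 domains MM-401 lay between the others, nearer to 4-OHT only at Etv5. The lowest were Wdr43, a ribosome biogenesis gene, with 65.9, 76.4 and 56.6 (0.859-fold), and Ptk7/Klc4 with 55.5, 57.2 and 51.7 (0.932-fold). These were the 2 domains in which 4-OHT was below untreated by this count. Their H3K4me2 peaks were longer after 4-OHT, at 17819 against 11402 bp for Wdr43 and 28314 against 14188 bp for Ptk7/Klc4. The tags of the whole peaks were higher after 4-OHT, at 95.7 against 71.3 and 146 against 78.5 tags per M. A lower level inside these domains is therefore not shown.

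MM-401 also had more H3K4me2 tags than untreated cells in 30 of 37 domains, with a median of 1.16-fold, but here the other wide domains had the same median of 1.16-fold and all peaks 1.08-fold. None of the 37 was at least 1.5-fold higher (3.72% over all peaks) and 2 were at least 1.5-fold lower (4.08%).

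Monomethylation differed little. H3K4me1 peaks covered medians of 97.9%, 97.4% and 97.6% of a domain in untreated, MM-401 and 4-OHT cells. Tags inside the domains had a median 4-OHT to untreated ratio of 0.954, higher in 8 of 28 domains, against 0.951 in the other wide domains and 0.955 over all peaks, and none of the 28 was at least 1.5-fold higher (1.24% over all peaks) or lower (0.826%). After MM-401 the ratio was 1.12, with 27 of 31 domains higher, against 1.10 in the other wide domains, and again none was 1.5-fold higher (2.85% over all peaks) or lower (1.17%). Domain by domain, the highest 4-OHT ratio was at Platr22, with 35.5 tags per M untreated and 39.8 after 4-OHT, and the lowest was at Etf1, with 68.9 and 56.1.

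**Figure D5:**
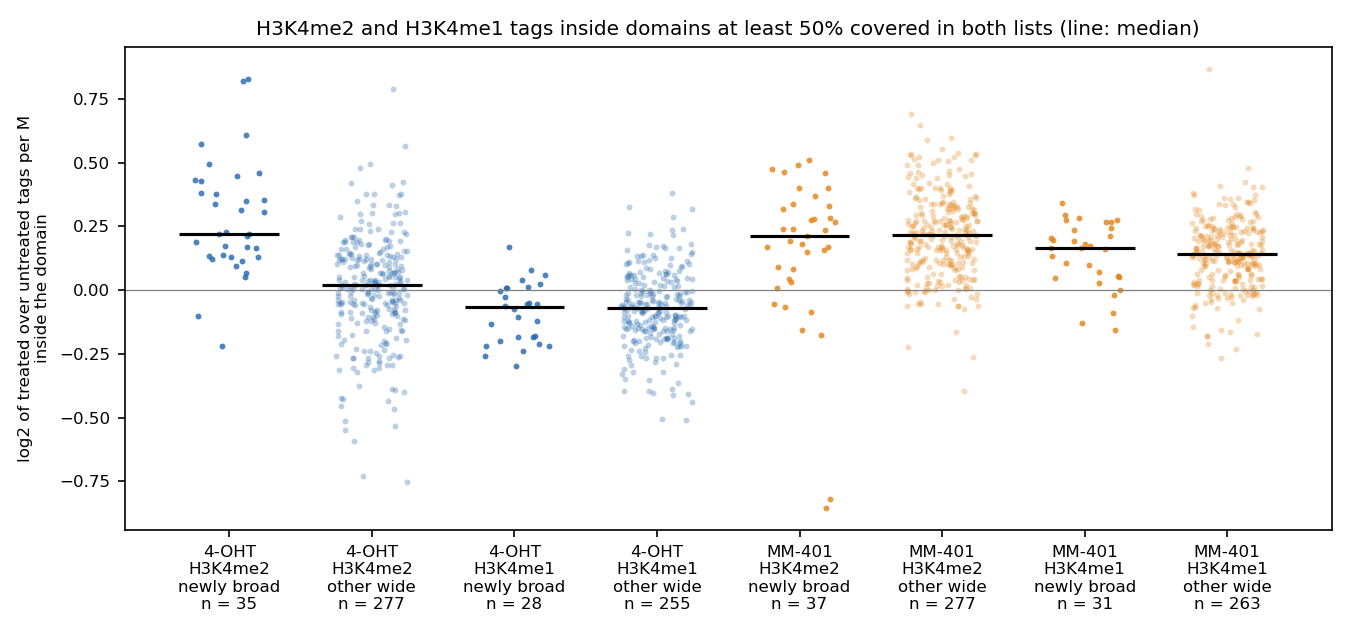
The log2 ratio of treated to untreated tags per M inside the domain, counted in proportion to overlap, is drawn for H3K4me2 and H3K4me1 after 4-OHT (blue) and MM-401 (orange), for newly broad and other wide domains at least 50% covered in both lists; each point is a domain and lines are medians. The H3K4me2 points of the newly broad domains after 4-OHT have a median of 0.22 against 0.02 for the other wide domains, while the paired medians for H3K4me1 and for MM-401 lie within 0.03 of each other.

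Some lists hold no peak over a domain in places where their neighbours are wide, and these zeros were not read as loss. The 4-OHT H3K4me2 list has no peak over either Jarid2 domain, in a gap of 91389 bp between its nearest peaks, although untreated and MM-401 H3K4me2 covered 99.1% and 99.2% of the longer domain. For H3K4me1 fewer than 10% of the domain was covered in 4 domains untreated, 3 after MM-401 and 7 after 4-OHT. Jarid2 was covered to 3.64% untreated, 92.2% after MM-401 and 3.59% after 4-OHT, and the MM-401 cover came from a peak of 68454 bp. Rbpj was covered to 91.3% untreated and 11.2% after 4-OHT. The H3K4me1 list after 4-OHT held no peak at Ywhag, Etl4 and Zdbf2, which were fully covered in untreated and MM-401 cells. A wide peak missing from the untreated H3K4me3 list in the same way would make a domain newly broad. Whether that happened was not tested. The MM-401 H3K4me3 list also has no peak over the second Jarid2 domain, in a gap of 83281 bp.

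Mll1 itself was mapped in untreated cells. Its peaks numbered 4004, with 0.285% of tags inside them. They overlapped 10 of the 37 domains (27.0%) and 97 of the 277 other wide domains (35%). Over all 4-OHT H3K4me3 peaks the share was 3.63%, and over those of at least 10000 bp 34.1%. Of the 2 sets of wide domains, the newly broad set had the lower share, and this difference was not tested. The 10 domains were those of Foxd3, Rbpj, Etl4, Polr3gl, Bcar1, Rplp0/Gcn1, Etf1, Zfp532, Kat6b and the domain at Platr22. Polr3gl encodes an RNA polymerase III subunit and Bcar1 an adaptor of Src signalling.

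The Mll1 peaks were weak. The 12 peaks in these domains had 9 to 16 tags each, and 10 of them lay on an untreated H3K4me3 peak. The best scored were at Platr22 (chr1:136692489-136692673, 14 tags) and in Etl4 (chr2:20669341-20669587, 16 tags). Their false discovery rates, 5.58% and 5.97%, were nevertheless the highest of the 12, ahead of 3.25% at Foxd3, so score and false discovery rate rank these peaks differently. At Foxd3 (chr4:99654656-99654826) there were 12 tags and at Rbpj (chr5:53589650-53589820) 11, both upstream of the printed promoters. Neither promoter window overlaps its Mll1 peak.

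Of 255 genes in 16 lists, 4 had a start or end within 1 kb of a newly broad domain, a higher share than the 29 of all 21887 protein-coding genes (0.132%). The lists were drawn up with earlier results known, so nothing is read from this share. These were Foxd3 (1 of 14 core pluripotency genes), Jarid2 (1 of 16 Polycomb genes), Smad7 (1 of 15 genes of Nodal and bone morphogenetic protein signalling) and Rplp0 (1 of 16 housekeeping genes). In 12 lists no gene had one. Etv5, of the formative list, held a domain in its body only. The other wide domains reached 332 genes (1.52%), 23 of them in the lists, and among these were 6 of the 14 core pluripotency genes: Pou5f1, Nanog, Sox2, Sall4, L1td1 and Rif1. Outside the newly broad set, by the rule, each wide domain overlapped an untreated peak of at least 5 kb and had more than 50% untreated cover, so the domains at these 6 genes were already wide or largely covered without treatment.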

How the data were processed

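ChIP-seq of H3K4me1, H3K4me2 and H3K4me3 in 3 groups and of Mll1 in untreated cells gave 10 peak lists, with 4 inputs. Per the file headers, the authors removed duplicate tags and called peaks with MACS 1.4.2 at p 1e-05, 1 library against 1 input. Per the submitters' processing notes, Bowtie2, SAMtools 1.5, MACS2 and mm10 were used, and the headers were followed for the caller. The deposited columns are peak length in bases, the count of tags, a score (-10 times log10 of the caller's p-value), a fold enrichment ratio and a false discovery rate in percent. Depth was 12.9 to 61.8 M (M, 1000000) filtered tags for histone libraries. Filtered tags are those left after duplicate removal.

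Overlaps (at least 1 bp), cover and tags per M filtered tags were computed with Python 3.11.15, pandas 2.3.3 and scipy 1.17.1, checked on simulated peaks. Genes were from RefSeq (GRCm38.p6, the assembly of mm10), and coordinates are 1-based on mm10. Exact Poisson 95% intervals cover counting error only. With 1 library per group no test was made. Every domain was named by the gene within 1 kb, otherwise by its host or nearest gene. Those described were the longest, the least covered, the extremes of each mark, those with Mll1 peaks, listed genes and those nearest a limit. Others were added after their values were seen. Of the 37 domains, 2 enter all counts and medians and are not reported singly here. The domains and gene lists were chosen with earlier results of these data known. Alternatives varied the limits, joined peaks, and changed the score minimum, tag measure and depth.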

Additional observations from a re-analysis of the deposited data

How the results depend on the processing

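The number of domains depended on the limits. It was 118 with a minimum of 8000 bp, 17 with 12000 bp, 118 and 329 with peaks joined across gaps of up to 1000 and 3000 bp, 139 with an untreated limit of 7500 bp and 59 with cover of at most 60%. Of the 37 domains, 25 were kept after joining at 1000 bp and 13 at 3000 bp. All 10 alternatives of the rule kept 5 of them: Cndp2, Etv5, Hsd17b14/Bcat2, Rbpj and Zfp532. The median untreated H3K4me3 cover was 63.3% with the 8000 bp minimum and 45.2% with peaks of score 100 or more. None of the 12 Mll1 peaks in the domains reached that score, so the Mll1 overlap fell to 0. The median H3K4me2 cover difference was 0.479 points after joining at 1000 bp, against 0. With the tags of whole overlapping peaks the median log2 ratio of 4-OHT to untreated was 0.54 for H3K4me2 and 0.20 for H3K4me1. Tags in proportion to overlap gave 0.22 and -0.064, and, in domains at least 50% covered in both lists, a choice made after seeing the data, 0.22 and -0.068. Whole peaks count tags outside the domains, so the proportional values are given above. The proportional values take tags as spread evenly along a peak. The other 35 of 49 alternatives stayed within the limits set for a move. No paired analysis was possible because each group has 1 library per mark. Gaps below the caller's threshold, and a depth of 12.9 M tags after MM-401, limit what a missing peak shows.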
